A study of Mus musculus with 20 samples.

Results

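A set of 10 intermediate filament genes is described here in NMuMG cells, an epithelial cell line derived from normal mouse mammary tissue. They are the keratin genes Krt5, Krt7, Krt8, Krt14, Krt17, Krt18, Krt19 and Krt20, vimentin (Vim) and nestin (Nes). They make 10 of the 54986 genes of the table and were chosen by name, with earlier results of these data in view. Their values are therefore given as a description, with standard errors and without p-values. Where a member is said to be called, the call is part of this description and carries no weight as a test. P-values are given only for other genes. RNA was sequenced from 10 conditions with 2 libraries each, and the comparisons stay within 2 kinds of library. The first kind holds untreated NMuMG, NMuMG treated with TGFβ, NMuMG with an shRNA against hnRNP E1 (E1KD), and the M1P and L1P lines. By the study's methods, E1KD cells were injected into the mammary fat pad of NOD/SCID mice, which lack most lymphocytes, and M1P cells were recovered from the primary tumor and L1P cells from lung metastases. Both lines were cultured before RNA was taken, and each is 1 line. They descend from cells with the hnRNP E1 shRNA, and the labels name both as silenced for PCBP1. They are therefore counted here among the lines with this shRNA. The second kind holds NMuMG with an empty vector, the Platr18-overexpressing clones 12 and 16, and E1KD cells that also carry an shRNA, either scrambled (E1KD SCR) or against Platr18 (E1KD Platr18 KD). Platr18 is a long intergenic noncoding RNA, and hnRNP E1 is the RNA-binding protein encoded by Pcbp1. Nothing in the labels says whether the libraries of a condition came from separate cultures.

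Intermediate filaments are rope-like polymers that give cells mechanical strength. Keratins assemble only as pairs of a type I and a type II protein, and simple epithelia are known for the pair of Krt8 (type II) and Krt18 (type I), joined by Krt7 and Krt19 in ducts. Krt5 and Krt14 are the pair of basal cells of stratified epithelia and of mammary myoepithelium, and Krt17 is known from skin appendages and wounds. Krt20 is a type I keratin of the gut lining and urothelium. Vimentin is a type III protein of mesenchymal cells and a common marker of epithelial–mesenchymal transition (EMT), and nestin, known from neural progenitors, joins filaments of vimentin. Cells that undergo EMT are generally described as exchanging keratin for vimentin filaments.

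The deposited values are counts-per-million values (CPM). Taking the commonest low value of a library as 1 read, the libraries of the first kind hold 50.8 to 60.03 M reads (M, 1e6 reads) and those of the second kind 63.0 to 147 M. At these depths 3 reads are worth 0.0204 to 0.0591 CPM, and values at or below that level are treated as not detectable at this depth. The kinds differ in more than depth, since the mitochondrial rRNA gene mt-Rnr2 had 333 to 492 CPM in the first and 113874 to 165149 CPM in the second. Pcbp1 had 287 and 312 CPM in NMuMG and 14.2 to 30.5 CPM in E1KD, M1P and L1P, and it had 32.3 and 32.3 CPM with the empty vector and 2.92 to 3.46 CPM in both E1KD lines of the second kind. Replicate 1 of E1KD stands apart, with a median log2 ratio to replicate 2 of 0.294 across the tested genes, against -0.0669 to 0.00387 for the other conditions. Of the 8 epithelial markers, Epcam, Cldn3 and Cldn7 were at or under 3 reads in every condition, whereas Cdh1 had 232 and 237 CPM in NMuMG. The endothelial list summed to at most 0.541 CPM and the immune list to at most 3.48 CPM in any library.

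The genes lie in 2 keratin clusters and at 2 other loci (GRCm38, strand in parentheses). The type II genes and Krt18 are on chromosome 15, with Krt7 at chr15:101411043-101430313 (plus), Krt5 at chr15:101707070-101712898 (minus), Krt8 at chr15:101996698-102004482 (minus) and Krt18, the type I gene beside it, at chr15:102028180-102032027 (plus). The other type I genes are on chromosome 11, with Krt20 at chr11:99428403-99438150 (minus), Krt19 at chr11:100140810-100148665 (minus), Krt14 at chr11:100203162-100207548 (minus) and Krt17 at chr11:100256217-100261029 (minus). Vim is at chr2:13573927-13582826 (plus) and Nes at chr3:87971078-87980451 (plus). Strand use in the counting is not stated, but RP24-367L4.2, antisense to Krt7, had at most 0.0334 CPM and the lincRNA RP23-342B21.5, opposite Krt8, at most 2.42 CPM.

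Krt8 and Krt18 share much of their sequence with processed pseudogenes, so the assignment of reads to these genes is uncertain. Krt8-ps on chromosome 7 (chr7:23357125-23358069, GRCm38.p6) is a single exon of 945 bases, of which 17 differ from the Krt8 transcript. It covers 48.3% of that transcript, and the longest stretch without a difference is 299 bases. The following 100 bases from a coding exon of Krt8 (chr15:102003998-102004097, minus strand) and from Krt8-ps (chr7:23357267-23357366, plus strand) show how little separates them, with the 4 differing bases in capitals.
Krt8: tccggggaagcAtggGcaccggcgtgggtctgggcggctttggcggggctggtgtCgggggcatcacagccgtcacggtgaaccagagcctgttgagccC
Krt8-ps: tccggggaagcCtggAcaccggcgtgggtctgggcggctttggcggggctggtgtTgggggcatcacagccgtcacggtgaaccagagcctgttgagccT
The other copy, RP23-443K24.1, is 90.2% identical to the Krt18 coding sequence over 1269 aligned bases. No copy of Krt7, Krt19, Krt20, Vim or Nes was found at the same limits, while Krt14 and Krt17 are 89.1% identical to each other over 957 bases.

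The share of CPM that fell to the pseudogenes differed between the kinds of library. Of the sum of Krt8 and Krt8-ps, Krt8-ps took 46.6% to 56.2% in the first kind and 33.8% to 35.4% in the second. Of the sum of Krt18 and RP23-443K24.1, the pseudogene took 36.6% to 55.9% in the first kind and only 2.26% to 2.75% in the second. Within the first kind replicate 1 of E1KD was lowest in both, with 46.6% and 36.6% against 53.0% and 49.0% in replicate 2. Where these reads came from was not tested, so sums with the pseudogenes are given beside Krt8 and Krt18 below, as an alternative chosen after the data were seen.

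**Figure D1:**
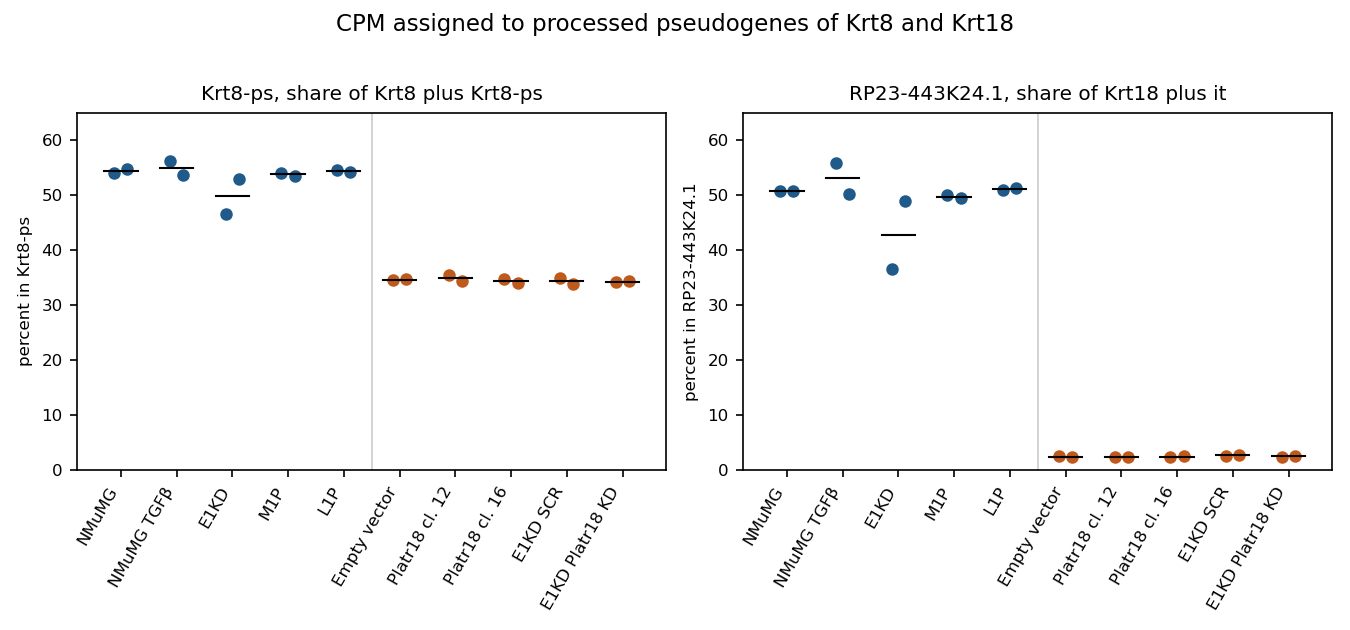
Percent of the CPM of Krt8 plus Krt8-ps that was assigned to Krt8-ps (left) and of Krt18 plus RP23-443K24.1 that was assigned to RP23-443K24.1 (right), one point per library and a line at the mean of the 2 libraries, with blue for the first kind of library and orange for the second. The Krt18 pseudogene took 36.6% to 55.9% in the first kind and 2.26% to 2.75% in the second.

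Krt8, Krt18, Krt19, Krt20, Vim and Krt7 were detected in all 20 libraries, Nes mainly in cells with the hnRNP E1 shRNA, and Krt5, Krt14 and Krt17 stayed below 1 CPM throughout. Per kilobase of transcript, the level in untreated NMuMG was highest for Krt8 with 661 ± 5.98 CPM per kb (SD, n = 2) and Krt18 with 647 ± 5.74. Krt19 followed with 308 ± 8.85 CPM per kb, Vim with 221 ± 7.14, Krt20 with 67.3 ± 1.17 and Krt7 with 4.56 ± 0.0273. Nestin was at 0.0151 ± 0.00911 CPM per kb in the same libraries. The libraries of neighbouring genes in this order did not overlap. In E1KD, Vim reached 591 ± 112 CPM per kb and Nes 47.2 ± 2.73, while Krt20 had 13.4 ± 2.54. Fits took genes that reached 1 CPM in 2 or more libraries, which let in 7 of the 10 and left out Krt5, Krt14 and Krt17.

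Of the basal keratins, Krt5 and Krt17 were close to the limit of detection, and Krt14 was above it in some conditions. Krt5 had its highest mean of the first kind in L1P, with 0.157 and 0.252 CPM that overlapped with NMuMG and M1P, and was at 0 in both clone 16 libraries. Krt14 reached 0.451 and 0.616 CPM after TGFβ (27 and 37 reads) and 0.637 and 0.894 CPM in clone 16 (46 and 64 reads), and had at most 0.235 CPM in the other 16 libraries. Krt17 had 3 reads or fewer in all libraries but replicate 2 of TGFβ-treated NMuMG, which had 0.0666 CPM. Trp63, which encodes the p63 factor of basal cells, was at or under 3 reads in every condition but E1KD SCR. It is 1 of 7 basal and myoepithelial markers, and other genes of that list were detected. The list summed to 53.6 and 55.4 CPM in NMuMG, with Trp63, Acta2, Myh11 and Oxtr at or under 3 reads. In E1KD it summed to 6.41 and 7.94 CPM. Differences among the values of Krt5, Krt14 and Krt17 were not fitted.

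**Figure D2:**
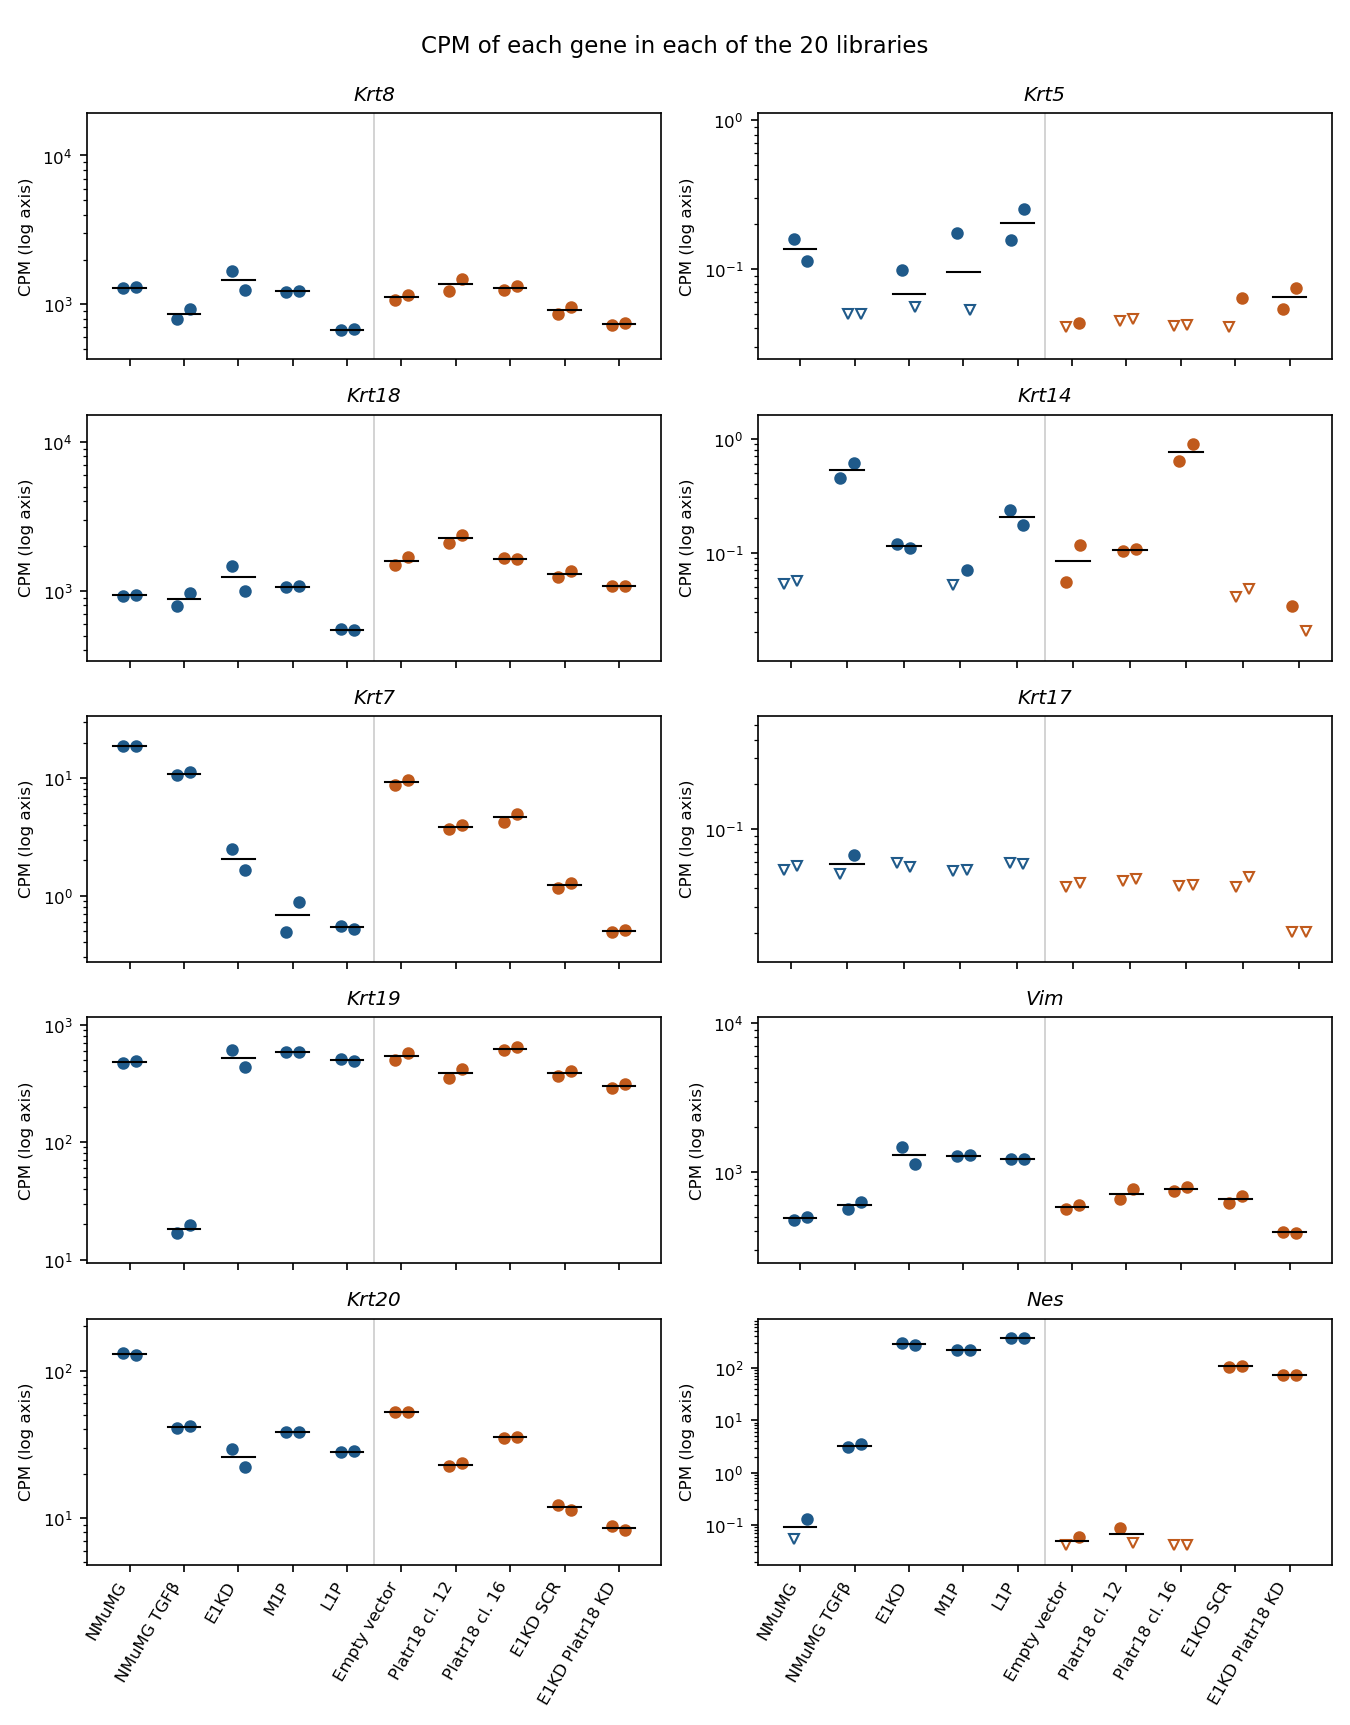
CPM on a log axis for each of the 10 genes in the 20 libraries, with filled points for values above 3 reads, open triangles at the 3-read level for values at or below it, and a line at the mean of the 2 libraries of a condition where that mean is above the level. The libraries of the first kind are blue and those of the second orange. Nes stands at 71.9 CPM or more in every library with the hnRNP E1 shRNA and at 3.45 CPM or less in all others, and Krt19 is low only after TGFβ.

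The comparison of E1KD with NMuMG asks what silencing of hnRNP E1 changes. The labels name no control shRNA in these NMuMG cells, so silencing cannot be told apart from carrying an shRNA. Nestin and vimentin were higher in E1KD, and Krt7 and Krt20 lower, while the main pair Krt8 and Krt18 and Krt19 stayed close to NMuMG. Nes was at 0.0531 and 0.132 CPM in NMuMG, whereas the E1KD libraries had 301 and 278 CPM. The difference in log2(CPM + 1) was 8.05 (SE 0.0681), and no ratio is given because the NMuMG values rest on a few reads. Vim had 474 and 496 CPM in NMuMG and 1470 and 1122 CPM in E1KD, a ratio of means of 2.67 and a difference of 1.40 (SE 0.110). The lowest E1KD library was above both NMuMG libraries for each of these genes. Krt7 had 18.6 and 18.7 CPM in NMuMG and 2.48 and 1.64 CPM in E1KD, 9.05 times less (difference -2.70, SE 0.126). Krt20 had 131 and 128 CPM in NMuMG and 29.2 and 22.3 CPM in E1KD, 5.03 times less (difference -2.30, SE 0.0921). Neither of these keratins overlapped between the conditions, and the more abundant keratins did not share this direction.

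Krt19, the small type I keratin that lacks the usual tail, had 475 and 495 CPM in NMuMG and 607 and 434 CPM in E1KD, and the libraries overlapped. Krt8 overlapped as well, with 1285 and 1302 CPM against 1683 and 1243. Krt18 had 924 and 936 CPM in NMuMG and 1463 and 997 CPM in E1KD (difference 0.38, SE 0.140), without overlap. With the pseudogene CPM added, the differences of Krt8 and Krt18 were 0.02 and 0.17. Under the limits of unadjusted p under 0.001 and a log2 difference of at least 1, 4 of the 7 genes were called, 2 higher and 2 lower, where 9.44% of all 17106 genes tested were called, 6.44% higher and 2.99% lower. The median difference of the 7 genes was 0.16, beside 0.17 over all genes, so a difference near 0.17 is the middle of this comparison as scaled. The median over all genes was 0.0241 with median-of-ratios scaling and 2.71e-20 without replicate 1 of E1KD. Without replicate 1 of E1KD the differences were 1.21 for Vim, -2.89 for Krt7 and -2.49 for Krt20, and those of Krt8 (-0.06) and Krt19 (-0.16) changed sign. Vim was not called when only the libraries of the compared conditions were in the fit. Over all genes 1102 were called higher and 512 lower, and 762 and 688 with median-of-ratios scaling.

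TGFβ, which induces EMT in these cells, came with little Krt19, whereas Krt19 in E1KD overlapped with NMuMG. Krt19 had 475 and 495 CPM in NMuMG and 16.7 and 19.6 CPM after TGFβ, 26.8 times less, with a difference of -4.67 (SE 0.134). Krt20 had 131 and 128 CPM before and 40.6 and 42.1 CPM after treatment, 3.14 times less (difference -1.63, SE 0.0921). Krt7 had 10.6 and 11.2 CPM after TGFβ, a difference of -0.73 (SE 0.126) that is short of the limit of 1. Nes was at 3.09 and 3.45 CPM after TGFβ against 0.0531 and 0.132 CPM, a difference of 1.97 (SE 0.0681). That is a detectable level, but it lies far below the 278 CPM of the lower E1KD library. Vim had 561 and 630 CPM after TGFβ and 474 and 496 CPM before, a difference of 0.29 (SE 0.110) without overlap.

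Krt8 had 799 and 930 CPM after TGFβ, below both NMuMG libraries (difference -0.59, SE 0.124), and Krt18 had 789 and 972 CPM, which overlapped with NMuMG. After TGFβ 3 of the 7 genes were called, 1 higher and 2 lower, where 13.5% of all genes were called, 5.85% higher and 7.66% lower. Over all genes 1000 were called higher and 1311 lower, and 1261 and 1053 with median-of-ratios scaling. Both comparisons use the same NMuMG libraries, so their values are set side by side and not correlated. The fibroblast markers moved with TGFβ too, as their list summed to 42.9 and 51.6 CPM in the treated libraries and to at most 1.68 CPM in any other, with Col1a2, Col3a1, Dcn, Lum and Thy1 at or under 3 reads. The list of neural progenitor and glial markers summed to 8.58 and 8.70 CPM after TGFβ and to at most 0.447 CPM elsewhere, with Sox1, Sox2, Pax6 and Olig2 at or under 3 reads. Their part in the keratin and nestin values was not tested. In such bulk samples fewer cells of a type and less RNA per cell cannot be told apart.

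The M1P line differed from E1KD by less than 1 on the log2 scale in all 7 genes. In M1P, Nes had 220 and 218 CPM against 301 and 278 CPM in E1KD, a difference of -0.40 (SE 0.0681) without overlap. Vim had 1283 and 1288 CPM in M1P, between the 1470 and 1122 CPM of the E1KD libraries. Krt20 had 38.4 and 38.5 CPM in M1P and was above both E1KD libraries (difference 0.57, SE 0.0921). Krt7 had 0.489 and 0.886 CPM in M1P, lower than the 2.48 and 1.64 CPM of E1KD (difference -0.86, SE 0.126). None of the 7 genes was called, where 3.59% of all genes were, and the median over all genes was -0.17. These values lean on replicate 1 of E1KD, and without it the differences were -0.34 for Nes, 0.20 for Vim, 0.76 for Krt20 and -0.66 for Krt7. Krt7 was called when replicate 2 of E1KD or of M1P was left out (-1.05 and -1.03) or with a pseudocount of 0.1 (-1.48). Over all genes 198 were called higher and 416 lower, and 307 and 302 with median-of-ratios scaling.

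The L1P line, from the lung, differed from M1P most in the pair Krt8 and Krt18, which were lower, and in Nes, which was higher. Krt8 was at 670 and 679 CPM in L1P against 1214 and 1238 CPM in M1P, 1.82 times less (difference -0.86, SE 0.124). Krt18 was at 551 and 546 CPM in L1P against 1053 and 1080 CPM in M1P, 1.94 times less (difference -0.96, SE 0.140). Both partners of the pair were thus lower by similar amounts, without overlap, and with the pseudogene CPM added the differences were -0.84 and -0.92. Nes was higher in L1P, with 368 and 367 CPM against 220 and 218 (difference 0.74, SE 0.0681), which made L1P the condition with the most Nes in this kind of library. Krt20 had 28.2 and 28.3 CPM in L1P, below M1P (difference -0.43, SE 0.0921), and Krt19 with 512 and 493 CPM was also below its M1P values of 587 and 586 CPM. Vim had 1220 and 1226 CPM in L1P, 1.05 times less than in M1P. No gene of the 7 was called, since none reached a log2 difference of 1, and 1.21% of all genes were called between these lines.

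**Figure D3:**
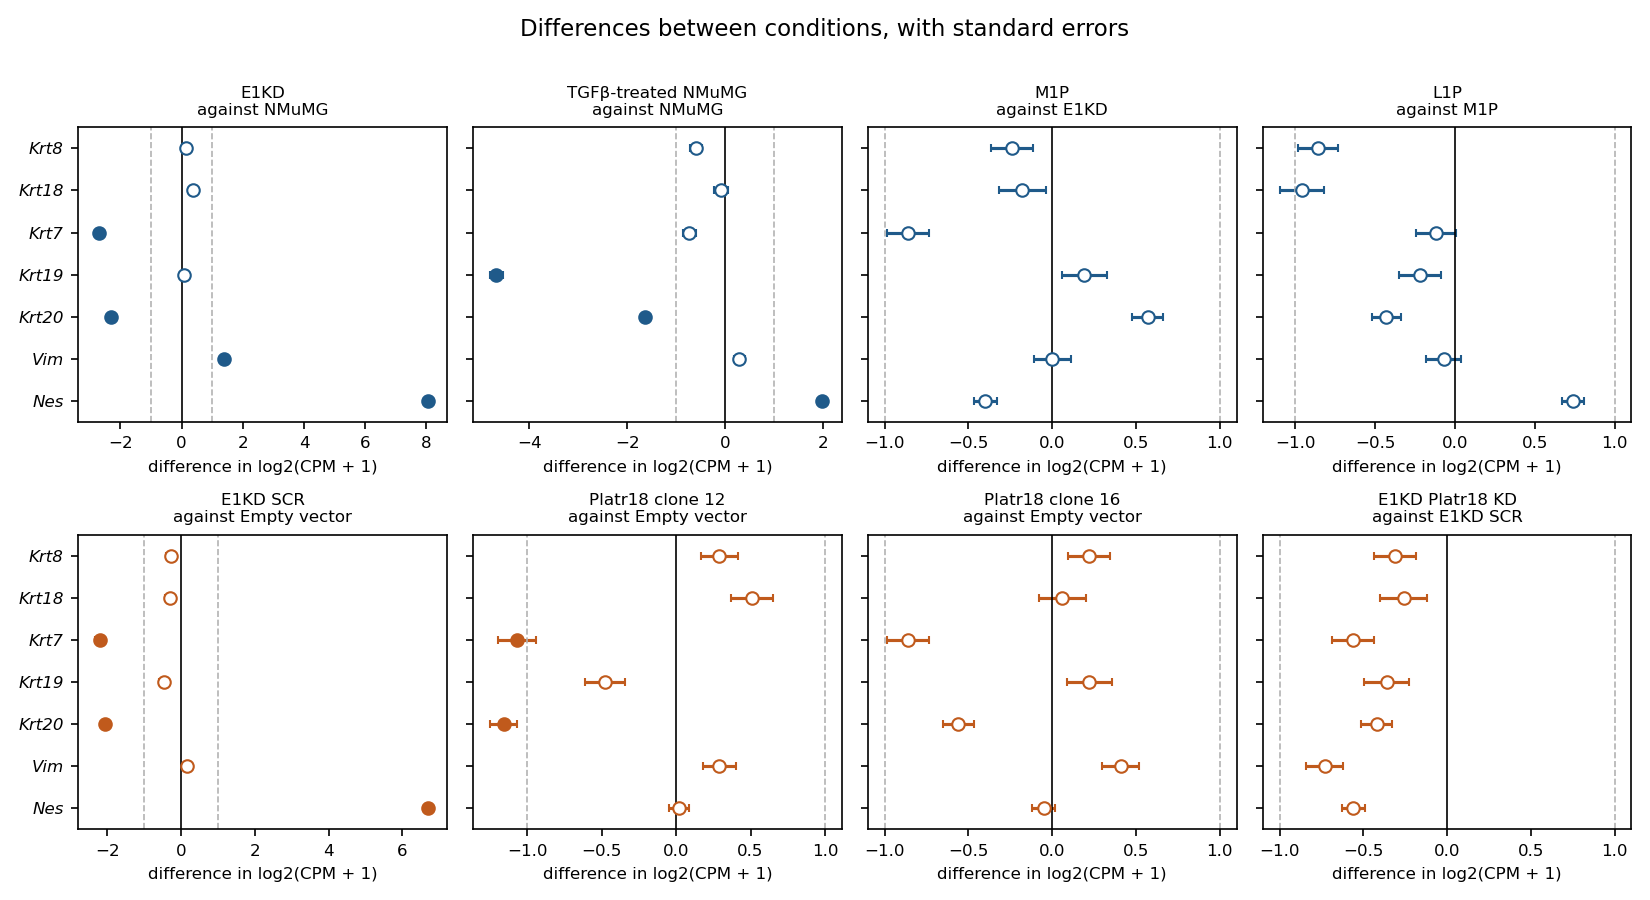
Difference in log2(CPM + 1) between conditions for the 7 genes that entered the fit, with bars of 1 standard error from limma, filled points for genes past p under 0.001 and a difference of at least 1, and dashed lines at -1 and 1. Each panel has its own axis. Nes is at 8.05 in E1KD and 6.68 in E1KD SCR, Krt19 is at -4.67 after TGFβ, and no point is filled for M1P, L1P, clone 16 or the Platr18 shRNA.

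The second kind of library allowed hnRNP E1 silencing to be read again, in E1KD SCR against the empty vector. These lines also differ in their constructs, a scrambled shRNA against an empty vector, which cannot be told apart from silencing. Nes, Krt7 and Krt20 had the same directions as before, and Vim differed less. Nes had 0.0411 and 0.0579 CPM with the empty vector and 105 and 108 CPM in E1KD SCR (difference 6.68, SE 0.0681). Krt7 had 8.71 and 9.72 CPM with the empty vector and 1.15 and 1.29 CPM in E1KD SCR, 7.56 times less (difference -2.20, SE 0.126). Krt20 had 52.4 and 52.4 CPM with the empty vector and 12.2 and 11.3 CPM in E1KD SCR, 4.45 times less (difference -2.07, SE 0.0921). These 3 genes were called, 1 higher and 2 lower, where 5.98% of all genes were called, 2.91% higher and 3.07% lower. All 7 fitted genes lacked overlap here, called or not. How many of all genes lacked overlap was not counted.

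Vim had 560 and 600 CPM with the empty vector and 619 and 684 CPM in E1KD SCR, a ratio of 1.12 (difference 0.17, SE 0.110), beside the ratio of 2.67 between E1KD and NMuMG. Krt19 was lower in E1KD SCR, with 366 and 406 CPM against 502 and 570 (difference -0.47, SE 0.134). Krt8 had 861 and 967 CPM against 1073 and 1151, and Krt18 had 1235 and 1349 CPM against 1485 and 1672, both lower without overlap. For Krt18 this is the opposite of the first kind of library. The 2 silenced lines also differed in the level reached, since the controls of both kinds had little Nes but E1KD had 278 CPM or more and E1KD SCR 108 CPM or less. The lines differ in their added constructs and in the kind of library, and these cannot be told apart.

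**Figure D4:**
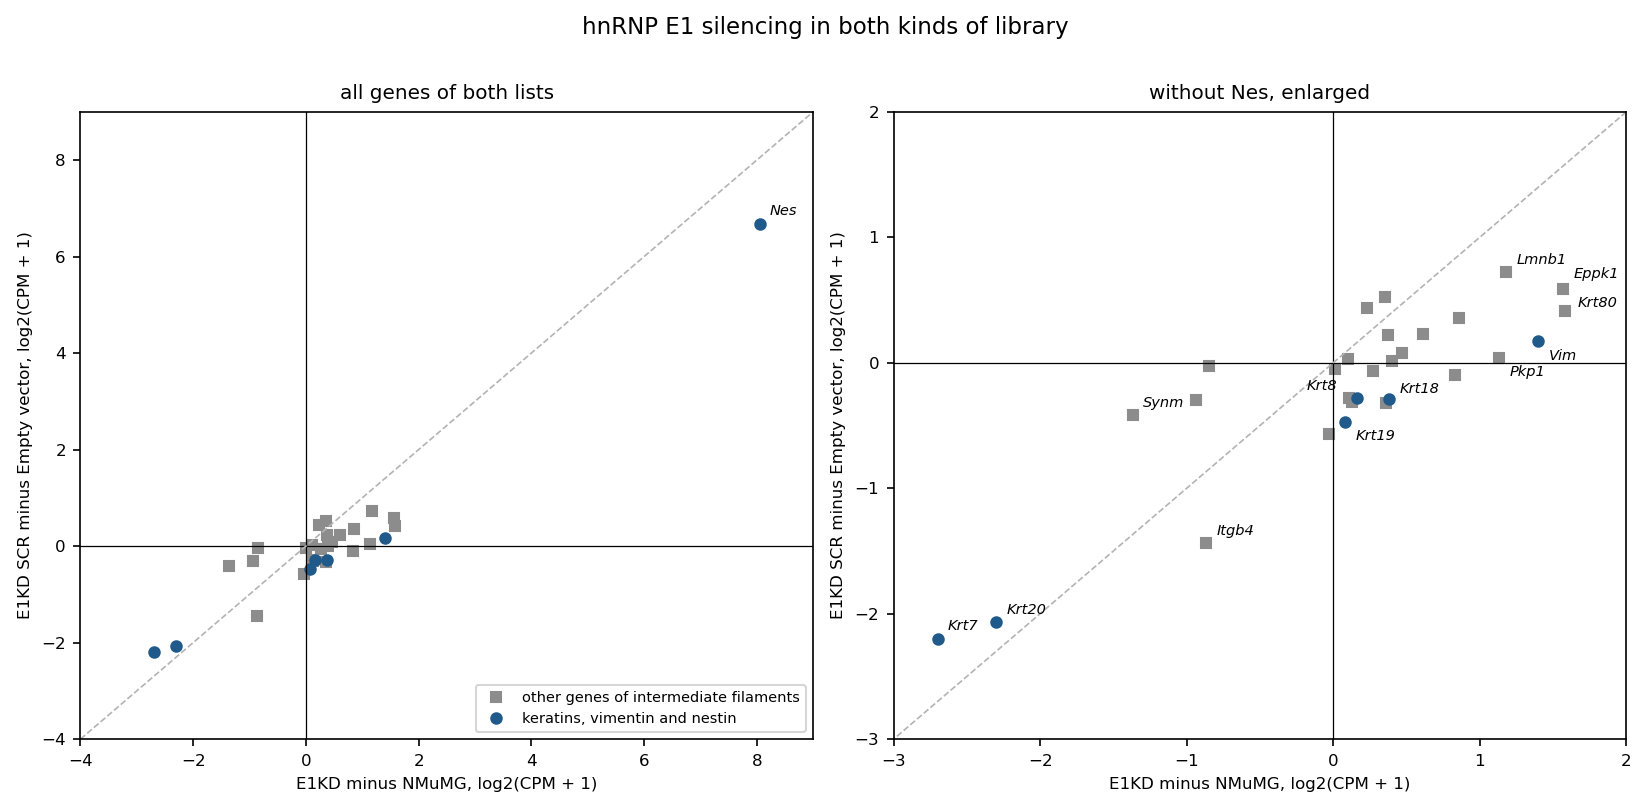
Difference in log2(CPM + 1) between E1KD and NMuMG (first kind of library, horizontal) and between E1KD SCR and the empty vector (second kind, vertical), for the 7 genes described (blue circles) and the 23 tested genes of the wider filament list (gray squares), with the dashed line at equal differences. The right panel enlarges the left without Nes. Nes is high on both axes (8.05 and 6.68), Krt7 and Krt20 are low on both, and Vim lies to the right with 1.40 and 0.17.

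Platr18 overexpression without silencing did not come with nestin. Nes had 0.0891 and 0.0460 CPM in clone 12 and 0.0277 and 0 CPM in clone 16, at or near the level of 3 reads, as with the empty vector. Platr18, listed under the symbol Lncenc1, had 3092 and 3096 CPM in clone 12 and 813 and 820 CPM in clone 16 against 3.68 and 3.06 CPM with the empty vector. Krt7 and Krt20 were lower in both clones. Krt7 had 3.68 and 4.02 CPM in clone 12 and 4.27 and 4.97 CPM in clone 16, against 8.71 and 9.72 CPM with the empty vector. Krt20 had 22.4 and 23.5 CPM in clone 12 and 34.9 and 35.5 CPM in clone 16, against 52.4 and 52.4. For both genes the 4 clone libraries lay below both empty vector libraries, with differences of -0.97 (SE 0.109) and -0.86 (SE 0.0797) for the clones together.

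Krt19, Krt20 and Krt18 differed most between the clones, by less than 1 on the log2 scale. Krt19 had 350 and 421 CPM in clone 12, below the 502 and 570 CPM of the empty vector, and 604 and 642 CPM in clone 16, above it. Krt18 had 2105 and 2385 CPM in clone 12, its highest level in any condition of this kind, and 1653 and 1625 CPM in clone 16, against 1485 and 1672. Clone 16 minus clone 12 was 0.69 (SE 0.134) in Krt19, 0.59 (SE 0.0921) in Krt20 and -0.45 (SE 0.140) in Krt18, each without overlap. None of the 7 genes was called between the clones, where 4.38% of all genes were. Vim was slightly higher in both clones than with the empty vector, with 657 and 766 CPM in clone 12 and 748 and 793 CPM in clone 16 against 560 and 600 CPM (difference of the clones together 0.35, SE 0.0949). For the clones together none of the 7 genes was called, where 1.46% of all genes were, although Krt7 was called without empty vector replicate 1 (-1.04) or clone 16 replicate 2 (-1.01) and with a pseudocount of 0.1 (-1.11). In clone 12 alone Krt7 and Krt20 were called (differences -1.07 and -1.16), both of them lower, where 3.65% of all genes were called, 1.13% higher and 2.52% lower. In clone 16 alone none was called and 1.78% of all genes were. Each clone is 1 clonal line.

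In E1KD cells the Platr18 shRNA came with lower values of all 7 genes than the scrambled shRNA, though by less than the limit of 1. Vim had 619 and 684 CPM in E1KD SCR and 394 and 388 CPM in E1KD Platr18 KD, 1.67 times less (difference -0.73, SE 0.110). Nes had 105 and 108 CPM in E1KD SCR and 71.9 and 72.5 CPM with the Platr18 shRNA, 1.48 times less (difference -0.56, SE 0.0681). Krt7 had 1.15 and 1.29 CPM in E1KD SCR and 0.489 and 0.511 CPM with the Platr18 shRNA (difference -0.56, SE 0.126). Krt20 had 12.2 and 11.3 CPM against 8.86 and 8.27 (difference -0.42, SE 0.0921), the lowest level of Krt20 in this kind of library. Krt19, Krt8 and Krt18 had differences of -0.36, -0.31 and -0.26, also without overlap. How many of all genes were lower or lacked overlap here was not counted. The libraries with the Platr18 shRNA were also deeper, with 147 M reads each against 73.9 and 63.0 M in E1KD SCR. The median difference of the 7 genes was -0.42, beside -0.02 over all genes, and none was called, where 1.48% of all genes were. With a pseudocount of 0.1 Krt7 was called (-1.13). Vim had the largest of the 7 differences on this scale, and its level with the Platr18 shRNA was below that of the empty vector. Platr18 had 2.92 and 3.10 CPM in E1KD SCR and 0.136 and 0.170 CPM with its shRNA. The E1KD SCR values overlapped with the 3.68 and 3.06 CPM of the empty vector, so this line had no rise of Platr18. In the first kind Platr18 had 17.9 and 14.6 CPM in E1KD against 1.24 and 1.45 CPM in NMuMG.

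Ratios within a library do not depend on how the libraries were scaled. With pseudogene CPM added to Krt18, the ratio of Krt19 to Krt18 was 0.253 and 0.261 in NMuMG and 0.00933 and 0.0100 after TGFβ. It was 0.263 and 0.222 in E1KD and 0.457 and 0.440 in L1P, where Krt18 was low. Per length, and with pseudogene CPM included, Krt19 held 18.2% of the type I members in NMuMG, 0.861% after TGFβ, 18.0% in E1KD and 28.6% in L1P. Without pseudogene CPM these shares were 30.1%, 1.78%, 27.6% and 44.6%. Among the second kind the lowest ratio was in clone 12 with 0.162 and 0.172, against 0.330 and 0.333 with the empty vector. Krt20 exceeded Krt19 in CPM only after TGFβ, with ratios of 2.43 and 2.15 against 0.276 and 0.259 in NMuMG.

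In the first kind the ratio of vimentin to Krt18 was lowest in NMuMG and highest in L1P. With pseudogene CPM added to Krt18 it was 0.253 and 0.261 in NMuMG, 0.314 and 0.323 after TGFβ, 0.637 and 0.574 in E1KD, 0.610 and 0.603 in M1P, and 1.09 and 1.09 in L1P. Without pseudogene CPM it was 0.513 and 0.530 in NMuMG, 0.712 and 0.648 after TGFβ, 1.00 and 1.13 in E1KD, 1.22 and 1.19 in M1P, and 2.21 and 2.24 in L1P. In the second kind, again with the pseudogene added, it was 0.368 and 0.350 with the empty vector and 0.488 and 0.493 in E1KD SCR. The ratio in E1KD Platr18 KD, 0.358 and 0.351, overlapped with that of the empty vector. The ratio of Krt8 to Krt18, with the pseudogenes added to both, was 1.49 and 1.52 in NMuMG, 1.02 and 1.03 after TGFβ, 1.36 and 1.35 in E1KD and 1.32 and 1.32 in L1P. The E1KD replicates, whose CPM values were far apart, were close together in this ratio.

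**Figure D5:**
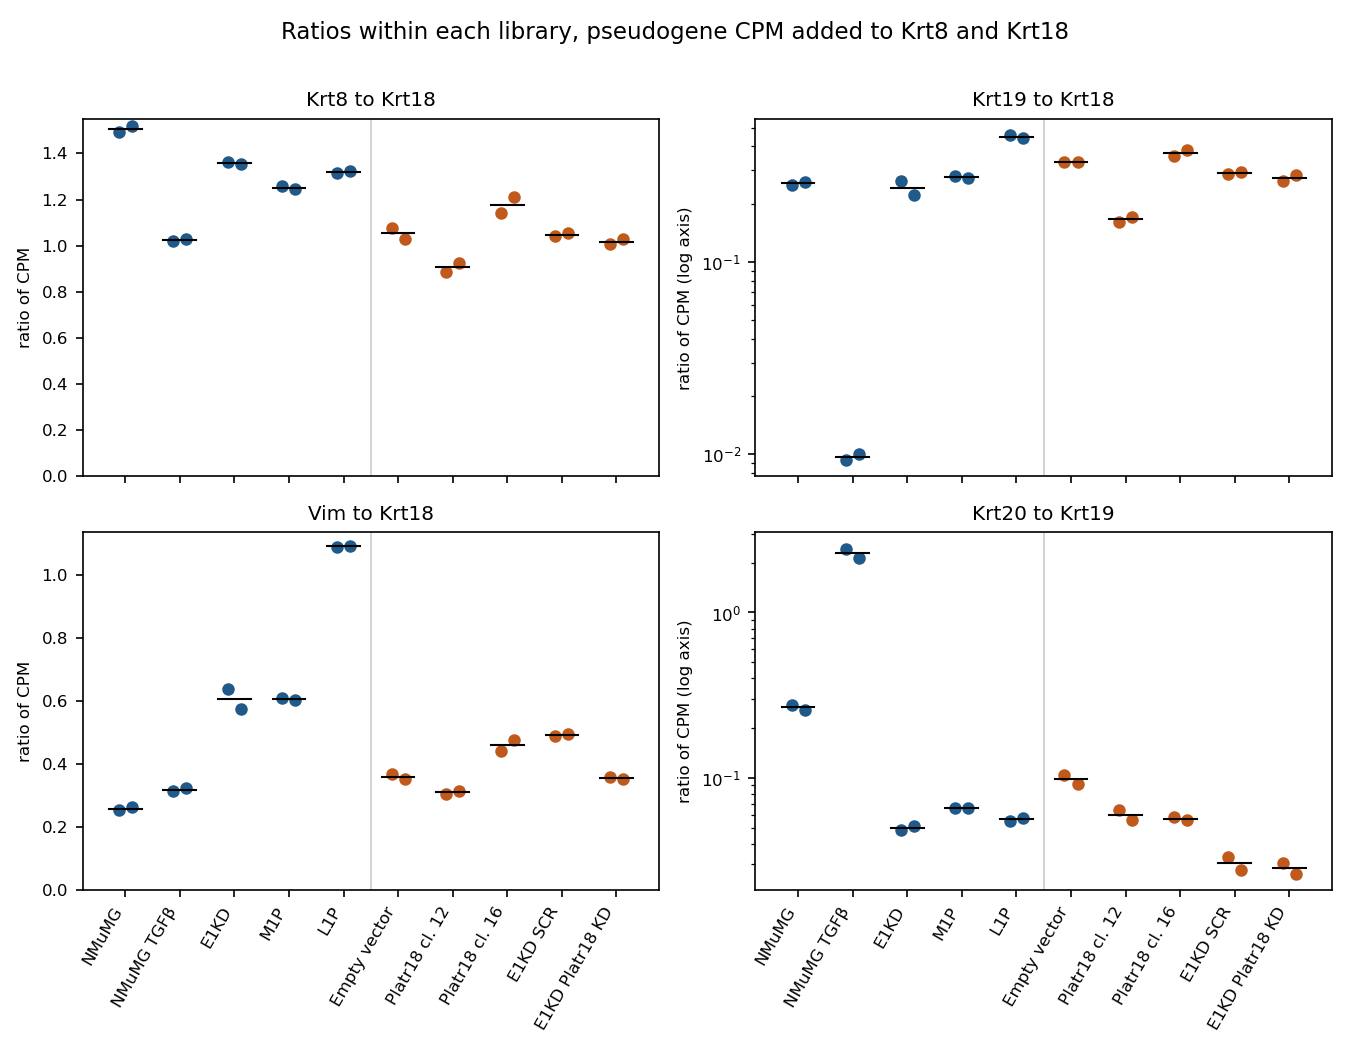
Ratios of CPM within each library for 4 pairs of genes, with the CPM of Krt8-ps and RP23-443K24.1 added to Krt8 and Krt18, one point per library and a line at the mean of 2. Blue marks the first kind of library and orange the second, and the axes of the panels on the right are logarithmic. Krt19 to Krt18 is near 0.01 only after TGFβ, and in the first kind Vim to Krt18 is highest in L1P with 1.09 and 1.09.

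Of 77 other genes of the filament system, 23 entered the fit. These were 2 of 47 other keratins (Krt10 and Krt80), 6 of 14 other filament genes and 15 of 16 genes whose proteins link filaments to junctions. Adjusted p-values are from limma with Benjamini-Hochberg adjustment over all 17106 genes. In E1KD against NMuMG 5 of the 23 were called, 4 higher and 1 lower, beside 6.44% higher and 2.99% lower over all genes. Krt80, a type II keratin, rose from 17.2 and 17.8 CPM to 60.3 and 48.5 CPM (log2 difference 1.58, SE 0.104, adjusted p = 1.3e-08). Eppk1, which encodes the keratin-binding epiplakin, rose from 4.97 and 4.94 CPM to 16.7 and 16.7 CPM (log2 difference 1.57, SE 0.0941, adjusted p = 4.3e-09). Lmnb1, the gene of lamin B1 in the nuclear lamina, rose as well (1.18, SE 0.135, adjusted p = 4.4e-06) but was not called without replicate 1 of E1KD (0.90). Pkp1, a desmosomal plakophilin, went from 0 and 0 to 1.28 and 1.11 CPM (adjusted p = 1e-09). Pkp1 met the filter of 1 CPM through libraries where it is high, the E1KD libraries among them. Its p-values here and below therefore carry little weight. Synm, which encodes the vimentin-binding synemin, fell from 9.33 and 8.23 CPM to 2.67 and 2.86 CPM (-1.37, SE 0.0862, adjusted p = 7.2e-09).

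After TGFβ 6 of the 23 were called, 3 in each direction, beside 5.85% higher and 7.66% lower over all genes. Of the genes for linkers, 4 were called, 2 higher and 2 lower, with Pkp1 among the higher ones. Ppl, the gene of periplakin, fell from 255 and 258 CPM to 37.5 and 41.2 CPM (-2.68, SE 0.0795, adjusted p = 1.4e-12). Dsp, the gene of desmoplakin, which ties keratin to desmosomes, fell from 618 and 625 CPM to 220 and 245 CPM (-1.42, SE 0.0768, adjusted p = 1e-09). Lmnb1 fell by 1.05 (SE 0.135, adjusted p = 1.1e-05), opposite to its direction in E1KD. Dst, the gene of the linker dystonin, rose from 162 and 157 CPM to 379 and 414 CPM (1.30, SE 0.111, adjusted p = 1.4e-07). Krt80 rose by 1.08 (SE 0.104, adjusted p = 5.4e-07), and Pkp1 went from 0 and 0 to 1.37 and 1.12 CPM (adjusted p = 5.5e-10).

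In the other comparisons few of these genes were called. Synm rose in M1P against E1KD, from 2.67 and 2.86 CPM to 7.81 and 8.56 CPM (1.28, SE 0.0862, adjusted p = 4.1e-08), and it rose with the Platr18 shRNA, from 1.06 and 1.05 CPM to 3.24 and 3.43 CPM (1.08, SE 0.0862, adjusted p = 6.3e-07). Itgb4, the integrin subunit of hemidesmosomes, fell in E1KD SCR against the empty vector, from 22.6 and 20.01 CPM to 7.40 and 7.04 CPM (-1.44, SE 0.239, adjusted p = 0.00022). No gene of the list was called in L1P against M1P or for the clones together. Between the clones 3 linkers were called, all higher in clone 16, beside 2.71% higher and 1.68% lower over all genes. They were Cd151, a tetraspanin, Pkp3, a plakophilin, and Jup, the gene of plakoglobin, with differences of 1.38, 1.13 and 1.04 (adjusted p = 3e-07, 3e-07 and 6.1e-05), and they were named after their values were seen. The difference between the silencing effects of the 2 kinds of library was tested for this list, and Krt80 and Pkp1 of the 23 were called, where 3.51% of all genes were. Krt80 rose by 1.16 more in the first kind (SE 0.147, adjusted p = 5.5e-05), and Pkp1 by 1.09 more (SE 0.0846, adjusted p = 4.3e-07). Over all genes 439 were called with a larger difference in the first kind and 162 with a smaller one, and 326 and 217 with median-of-ratios scaling.

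Over the 10 libraries of the first kind the levels of Nes and Vim moved together, with a Pearson r of 0.984 in log2(CPM + 1), and each moved against Krt7, with -0.970 and -0.944. Krt8 and Krt18 had an r of 0.923. Over the 10 libraries of the second kind the r was -0.573 for Nes with Vim, -0.900 for Nes with Krt7, 0.561 for Vim with Krt7 and 0.934 for Krt8 with Krt18. Each kind is 5 pairs of replicates and in the first kind the 3 lines with the hnRNP E1 shRNA descend from one another, so the values only describe them. Among protein-coding genes outside the group, the nearest in pattern to Nes were Gxylt2 (0.997) and Rims2 (0.996), with r of 0.690 and 0.784 over the 10 libraries of the second kind. Those nearest to Krt19 were Srd5a1 (0.999) and Tmem267 (0.997), with 0.524 and -0.00530 in the second kind. Krt7 was nearest to Apba1 (0.992) and Slc17a1 (0.991), with 0.964 and 0.794 in the second kind. Krt20 was nearest to Lcor (0.982) and Ppm1k (0.981), with 0.782 and 0.577 there. For Vim they were Tmem65 (0.995) and Pfkp (0.995), whose r turned negative in the second kind (-0.620 and -0.306). Krt8 was nearest to Srebf2 (0.994) and Chp1 (0.988), with 0.0351 and -0.950 in the second kind, and Krt18 to Arid2 (0.989) and Txnrd3 (0.970), with 0.149 and 0.934.

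The promoters of Krt7, Krt20 and Nes are shown because these members were called in the same direction in both comparisons of hnRNP E1 silencing. Each is 300 bases long, from 250 bases before to 50 bases after the start in RefSeq, on GRCm38.p6 and written along the gene. Capitals mark the motifs searched on both strands, CAGGTG, the E-box bound by the Snail and Zeb repressors, TGANTCA, the AP-1 site, and TATAAA, the TATA box. Krt7 lies at chr15:101412153-101412452 on the plus strand, Krt20 at chr11:99438104-99438403 on the minus strand and Nes at chr3:87970843-87971142 on the plus strand.
Krt7: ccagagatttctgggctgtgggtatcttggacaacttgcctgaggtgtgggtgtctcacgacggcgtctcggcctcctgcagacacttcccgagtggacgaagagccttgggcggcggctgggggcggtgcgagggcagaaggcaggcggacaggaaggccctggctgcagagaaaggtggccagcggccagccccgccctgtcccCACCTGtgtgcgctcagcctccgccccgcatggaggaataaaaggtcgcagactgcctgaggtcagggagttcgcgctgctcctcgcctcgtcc
Krt20: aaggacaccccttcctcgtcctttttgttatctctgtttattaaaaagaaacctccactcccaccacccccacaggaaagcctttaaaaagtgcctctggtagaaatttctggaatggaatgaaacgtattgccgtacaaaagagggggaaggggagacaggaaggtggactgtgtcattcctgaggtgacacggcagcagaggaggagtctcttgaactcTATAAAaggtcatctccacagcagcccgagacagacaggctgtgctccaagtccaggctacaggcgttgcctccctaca
Nes: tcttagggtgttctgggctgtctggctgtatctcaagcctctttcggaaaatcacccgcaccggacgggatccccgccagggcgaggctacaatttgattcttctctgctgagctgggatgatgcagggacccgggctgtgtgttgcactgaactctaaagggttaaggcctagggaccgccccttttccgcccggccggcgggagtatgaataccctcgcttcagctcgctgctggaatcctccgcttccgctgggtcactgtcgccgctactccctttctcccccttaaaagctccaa
Krt7 holds CAGGTG at position -44 from the start, and Krt20 holds TATAAA at position -29. Of the 8 members with a promoter entry, Krt5, Krt7, Krt8 and Krt18 held CAGGTG, which 20.2% of all 32851 promoters hold. Krt8, Krt20 and Vim held TATAAA (13.6% of all promoters), and none held TGANTCA (7.81% of all). In Vim TATAAA lies at position -32. In Krt8 2 overlapping copies, 1 on each strand, lie at -3 and -1 and so span the start used. The Nes and Krt14 windows held none of these motifs. The Krt14 window (chr11:100205981-100206280) lies inside the gene interval given above, whose 5' end is at 100207548. It is therefore not the sequence at the outermost annotated start of Krt14. The Krt7 and Vim windows also lie inside their gene intervals. Those of Krt8, Krt18 and Nes reach past the 5' gene ends by fewer than 250 bases, so their starts are inside too. Krt17 and Krt19 had no entry.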

How the data were processed

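RNA-seq of 20 NMuMG-derived libraries, 2 per condition, was analysed from 1 table of 54986 genes. Per the study's methods, RNA was extracted with Trizol, sequenced on an Illumina HiSeq instrument, aligned, and quantified against GENCODE by an expectation-maximization method in Partek, which shares out reads that match several genes. The submitters' processing notes name Bowtie2 2.2.5 and GRCm38.p6. Whether counting used strand is not given in the sources used here. The deposited values are counts-per-million values (CPM) to which the authors added 0.0001, and this was subtracted. Raw counts were not rebuilt, because in the first kind of library only 92.2% to 93.2% of low values were whole multiples of 1 read (97.4% to 98.1% in the second, tolerance 0.05). Floors of 3 reads cover counting error only. All 20 value columns were used.

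The members were chosen by name, and the lists and tests were set, with earlier results of these data known. Genes that reached 1 CPM in 2 or more of the 20 libraries (17106) were fitted as log2(CPM + 1) with limma 3.58.1 (R 4.3.3), with 10 condition means and a trended variance. Differences are on this scale, which understates changes of low genes. A gene was called at unadjusted p under 0.001 and a difference of at least 1, and adjusted p-values are Benjamini-Hochberg. All members were named, and of the wider list every gene called in the 7 comparisons, up to 10 or 5 by p, and others only where said. The nearest in pattern were the 2 protein-coding genes with the highest Pearson r to a member over the first kind of library. Copies were found with BLAST 2.17.0. Libraries of 1 condition may be technical replicates, so their spread, and any p-value, may cover technical error only. Replicate numbers gave no sign of pairing the samples, as described with the alternatives. Alternatives changed the pseudocount, filter, scaling and samples in the fit, left out each library, or added pseudogene CPM.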

Additional observations from a re-analysis of the deposited data

Results flagged for a closer look

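In 2 wider-list genes the effect of hnRNP E1 silencing differed between the kinds of library by a test of the difference itself (limma, Benjamini-Hochberg adjustment). Krt80 rose by 1.16 more in the first kind (adjusted p = 5.5e-05), with 3.11 times the NMuMG level in E1KD and 1.37 times the empty vector level in E1KD SCR. Pkp1 rose by 1.09 more (adjusted p = 4.3e-07), from 0 CPM in both NMuMG libraries to 1.28 and 1.11 CPM in E1KD, while E1KD SCR had 0.0812 and 0.0794 CPM. It met the filter of 1 CPM through libraries where it is high, the E1KD libraries among them, so its p-value carries little weight. The lines and the kinds of library cannot be told apart.

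Krt18 had opposite directions in the 2 silencing comparisons, with every E1KD library above NMuMG (0.38) and every E1KD SCR library below the empty vector (-0.29). This difference was not tested. The E1KD difference of Krt18 was 0.10 without replicate 1 of E1KD, where the median over all genes was 2.71e-20. With the pseudogene CPM added and both replicates it was 0.17, and the median over all genes was 0.17.

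Krt19 had opposite directions in the Platr18 clones, with clone 12 below the empty vector (-0.48) and clone 16 above it (0.22) in both libraries of each. Clone 16 minus clone 12 was 0.69 (SE 0.134) without overlap, which is under the limit of 1 for a call and is given as a description, with no p.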

How the results depend on the processing

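No difference of a member changed sign together with its call, and the calls of Nes, Krt7, Krt20 and Krt19 named for E1KD, TGFβ and E1KD SCR held under every setting run. With a pseudocount of 0.1, 1 member (Krt7) was called in M1P, for the clones and with the Platr18 shRNA. On the wider list the same pseudocount gave 4 calls in M1P, 1 for the clones, 3 with the Platr18 shRNA, 2 in E1KD SCR and 4 for the difference between the kinds of library, which had 1 when the mean had to reach 5 CPM. Fits with only the compared conditions gave 3 wider-list calls in E1KD and 0 in M1P. Median-of-ratios scaling and equal sums each gave 2 in M1P. Clone 12 alone gave 2 members and 2 wider-list genes (Dsp and Cd151), and clone 16 alone gave 1 (Synm). The names of these genes were chosen after their values were seen. Leaving out 1 library at a time gave 0 to 1 members called in M1P and for the clones, and on the wider list 1 to 3 in M1P, 0 to 1 for the clones and 2 to 4 for the difference between kinds. The wider-list count in M1P was 2 without E1KD replicate 1 and 3 without replicate 2. The count for the clones was 1 without empty vector replicate 2, and the difference between kinds was 4 without E1KD replicate 2. With a replicate block 4 members were called in E1KD, 3 after TGFβ, 3 in E1KD SCR and 0 in M1P, in L1P, for the clones together and with the Platr18 shRNA, and the block changed no member's call in these comparisons. The differences of replicate 1 minus replicate 2 were correlated across genes between compared conditions. These correlations ran from -0.125 to 0.127, so the numbers gave no sign of pairing, though this cannot exclude it. The crossed pairing of clone 16, added after the data were seen, called 0 members and 0 wider-list genes. Over all genes, E1KD against NMuMG had 1102 higher and 512 lower, 656 and 292 when the mean had to reach 5 CPM, 475 and 283 with only the compared conditions, and 2619 and 455 without E1KD replicate 2. In M1P the 198 and 416 became 189 and 1832 without that library. A pseudocount of 0.1 gave 399 and 731 in M1P, 270 and 195 in L1P, 185 and 431 for the clones, 171 and 462 with the Platr18 shRNA and 861 and 847 in E1KD SCR. The cause of these shifts was not tested. Krt5, Krt14 and Krt17 did not reach the 1 CPM that the fits required, so their differences were not fitted.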
